A study of Mus musculus with 36 samples.

Results

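The flow response of skin fibroblasts is described here as the difference between flow and static culture in 18193 genes. Its members are all arrays labelled as stimulated or control skin fibroblasts, 12 of the 36 arrays of the series. They come from 3 static and 3 flow libraries, each hybridised to 2 Affymetrix MOE430 arrays, chip A and chip B. Static and flow libraries of the same number were taken as pairs, and all genes were used. The cells were primary fibroblasts from the skin of CD1 mouse fetuses at 19 days post conception, with no gene altered. They were grown in medium with 15% fetal calf serum to 5 population doublings, seeded on gelatin-coated glass and left about 7 h to adhere. Static plates then stayed under medium with 2% serum for 14 h. Flow plates were perfused with medium of the same serum content in a parallel plate chamber, at a wall shear stress of 0.1 dyn/cm2 over the same time. The matching static and flow libraries of tendon and cornea fibroblasts, 3 of each, served to share the estimate of the spread and to compare responses. In cornea 2 libraries had no partner, so in the paired fit they added nothing to the spread or to the cornea response. The design text describes biological replicates, yet the labels speak of a time-mated mouse and do not tell how the fetuses were divided among cultures. The p-values therefore cover the spread among these libraries, part of which may be technical.

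Fibroblasts are the cells that make and remodel connective tissue, and in skin they build the collagen-rich dermis. Fluid moving over a cell drags on its surface, and in endothelium this drag is known to change genes of coagulation, adhesion and redox defence. One defence programme is run by the transcription factor NRF2. It is held inactive by the protein KEAP1 until reactive chemicals or oxidants modify KEAP1, and it then switches on genes that make glutathione, detoxify, break down haem and supply NADPH, through a DNA element called the antioxidant response element. NF-kB is a transcription factor that switches on chemokine genes in inflammation.

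The label was checked by description only, since the signal of a probe set depends on its probes and the files hold no detection calls. In the 6 skin libraries the fibroblast genes Col3a1, Col1a2 and Vim measured 12.59 to 12.94, 13.72 to 13.94 and 13.23 to 13.47 on the log2 scale. Of the dermal identity genes, Twist2 measured 11.39 to 11.66 and Prrx1 10.81 to 11.80, while En1 measured 4.92 to 5.52 and Sox2 3.87 to 4.57. Markers of smooth muscle and pericytes included Acta2 at 13.63 to 13.94 and Cnn1 at 10.13 to 11.74, genes that cultured fibroblasts can also express. The keratinocyte gene Krt14 measured 5.58 to 6.24, the endothelial gene Pecam1 5.29 to 5.87 and the leukocyte gene Tyrobp 5.24 to 5.79. Other members of these lists lay higher, with means of 9.50 for Flt1 (endothelial), 9.38 for Csf1r (leukocyte) and 8.57 for Pkp1 (keratinocyte). Lpl of the adipocyte list had 12.37 and Acta1 of the skeletal muscle list 11.83. Above the median gene of their chip lay 3 of 22 keratinocyte, 4 of 15 endothelial and 2 of 17 leukocyte markers. So did 6 of 13 smooth muscle and pericyte markers, 12 of 23 dermal identity genes and all 17 fibroblast markers. The lowest fibroblast marker was Fap (7.96). Arrays of skin on the same chip correlated at 0.981 to 0.995 on chip A and 0.984 to 0.993 on chip B. Skin static 2 carries a remark in its scan record, of perhaps more concentrated material. Pair 1 was scanned in another batch than pairs 2 and 3, so values by library or by pair are given for the leading genes and lists. Control probe sets at the 3′ and 5′ ends of a transcript drift apart as RNA is shortened or amplified from its 3′ end. For Gapdh this 3′ minus 5′ difference was higher under flow in 3 of 3 pairs on both chips. For beta-actin it was higher in 3 of 3 pairs on chip B and in 2 of 3 on chip A. For beta-actin on chip A the pairs differed by -0.08, 0.61 and 0.27. With the beta-actin difference, averaged over chips A and B, as a covariate 87 genes passed, 62 higher and 25 lower. Of these, 53 were among the 66 genes called here.

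Flow raised 47 genes in skin fibroblasts and lowered 19, together 66 of 18193 or 0.363% (0.258% higher, 0.104% lower). The rises were led by genes of haem breakdown and glutathione, and the falls by secreted inflammatory proteins. A gene was called changed at a limma adjusted p below 0.05, and at an unadjusted p below 0.05 there were 1534 genes (8.43%). The pairs carried most of this result. Without the pairs as a block, 5 genes passed (0.0275%), all of them rises and all among the 66. They were Gclm, Serpinb1b, Gsta4, Abcb6 and Stxbp5, and the other 61 genes named or counted below as changed rest on the pairing.

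**Figure D1:**
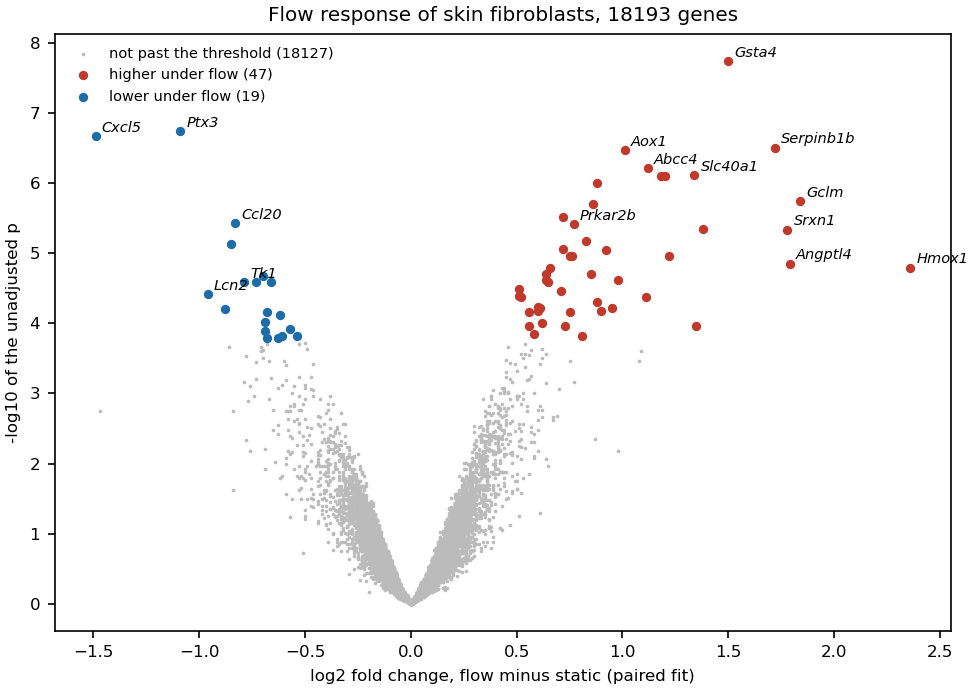
Each point is 1 of 18193 genes, with the log2 fold change of flow against static skin fibroblasts in the paired fit on the horizontal axis and -log10 of the unadjusted p on the vertical axis. The 47 genes called higher (red) reach 2.36 for Hmox1 and the 19 called lower (blue) reach -1.49 for Cxcl5.

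The 66 genes were chosen by a fit on these same pairs, so their agreement between pairs describes the calls and does not support them. All 47 rises differed upward in 3 of 3 pairs, and for 46 the flow libraries lay above all static libraries, the exception being Btbd11. The share of all genes with flow above static without overlap was 4.18%. The median of the 47 rises on the log2 scale was 0.98 in pair 1, 0.66 in pair 2 and 0.80 in pair 3, against -0.04, 0.00 and 0.00 for all genes. Pair 2 gave the smallest of the 3 differences in 31 of the 47 rises. The 19 falls differed downward in 3 of 3 pairs, and 14 had no overlap between the groups. The share of all genes with flow below static without overlap was 3.73%. The falls that overlapped were Gap43, Uhrf1, Ankrd1, Cdc42ep3 and Ptx3, whose libraries differed more between pairs than between conditions. Median falls were -0.63, -0.63 and -0.85 in pairs 1, 2 and 3. Only 15 rises and 2 falls reached 2-fold.

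The number of calls depended on each pair. With pair 1 left out 9 genes passed, with pair 2 left out 38, and with pair 3 left out 8, against 66 with all 3. The genes that passed in all 3 of these refits were Gsta4, Serpinb1b and Aox1 among the rises and Cxcl5 and Ptx3 among the falls.

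**Figure D2:**
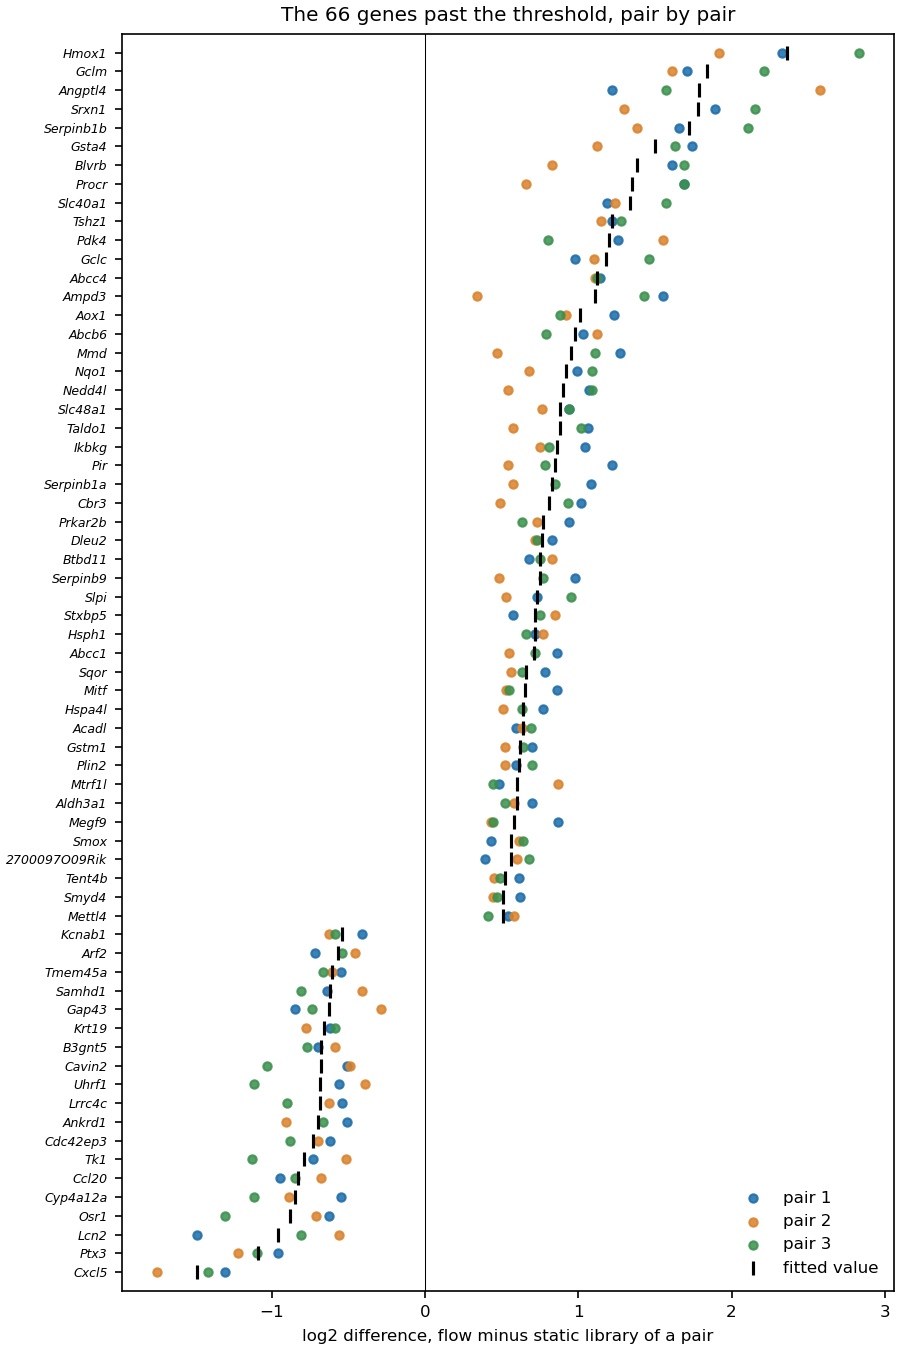
Log2 differences between the flow and static library of each skin pair (coloured points) for the 66 called genes, ordered by their fitted value (black mark). All 3 points lie on 1 side of 0 for every gene, and the points of pair 2 lie nearest to 0 in 31 of the 47 rises.

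Promoter sequences from RefSeq (GRCm38.p6) were searched for 3 motifs in the 250 bases before the start of each gene, on both strands. The antioxidant response element core was searched as TGACNNNGC, the heat shock element as GAANNTTC, and the NF-kB motif by its degenerate consensus. A promoter was held for 36 of the 47 rises and 14 of the 19 falls. None was held for Hmox1, Gclc, Gsta4, Angptl4 or Cxcl5, so these genes were not searched. The antioxidant core occurred in 8 of the 36 rises (22.2%), 2 of the 14 falls (14.3%) and 13.5% of the 14452 genes with a promoter. The 8 were Abcc4, Gclm, Hsph1, Ikbkg, Mitf, Pir, Procr and Smox. The NF-kB motif occurred in 5.56% of the rises, in 1 of the 14 falls (7.14%), which was the chemokine gene Ccl20, and in 10.1% of all. The heat shock element occurred in 2.78% of the rises, 14.3% of the falls and 6.62% of all.

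A few of these windows are shown because they belong to genes of the main groups below, a glutathione gene, a membrane receptor, an iron-binding protein and a chemokine. Capitals mark the match to the motif. All are on the plus strand, at chr3:122245307-122245556 for Gclm, chr2:155750967-155751216 for Procr, chrX:164269181-164269430 for Pir and chr1:83116516-83116765 for Ccl20.
Gclm: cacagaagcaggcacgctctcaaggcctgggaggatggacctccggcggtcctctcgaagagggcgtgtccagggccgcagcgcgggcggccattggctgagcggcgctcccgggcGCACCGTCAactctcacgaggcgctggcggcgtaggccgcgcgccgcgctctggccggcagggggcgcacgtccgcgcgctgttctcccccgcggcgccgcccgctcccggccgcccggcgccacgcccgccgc
Procr: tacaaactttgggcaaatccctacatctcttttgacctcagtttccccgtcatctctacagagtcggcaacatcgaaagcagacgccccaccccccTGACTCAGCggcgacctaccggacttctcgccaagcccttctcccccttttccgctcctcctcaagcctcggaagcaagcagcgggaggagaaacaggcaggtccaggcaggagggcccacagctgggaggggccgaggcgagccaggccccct
Pir: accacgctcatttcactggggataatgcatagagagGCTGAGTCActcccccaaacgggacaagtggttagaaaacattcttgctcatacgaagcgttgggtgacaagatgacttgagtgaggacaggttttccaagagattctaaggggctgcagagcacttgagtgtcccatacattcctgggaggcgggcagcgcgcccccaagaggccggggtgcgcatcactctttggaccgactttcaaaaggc
Ccl20: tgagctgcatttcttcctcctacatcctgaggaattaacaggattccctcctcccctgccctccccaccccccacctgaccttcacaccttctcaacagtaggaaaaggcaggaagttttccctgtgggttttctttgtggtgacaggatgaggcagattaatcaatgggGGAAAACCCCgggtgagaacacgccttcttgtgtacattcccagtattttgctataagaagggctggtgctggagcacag
The match begins 134 bases before the start in Gclm, 154 in Procr, 214 in Pir and 80 in Ccl20. The first 3 are the antioxidant core, which reads forward in Procr and on the opposite strand in Gclm and Pir, and the last is the NF-kB motif on the opposite strand. In Procr and Pir the core overlaps TGACTCA, a motif of AP-1, on the strand where it reads forward. These matches describe letters in the window and say nothing on binding.

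Genes of the NRF2 antioxidant response formed the largest group of rises. Of 30 measured members of the list 11 rose and none fell, against 0.258% of all genes that rose. The lists here and below were chosen with earlier results of these data known, so such shares are descriptions and were not tested. All 30 fitted values lay above 0, as did 44.4% of all genes, and the list median was 0.62 against -0.02 for all genes. The list median was 0.77 in pair 1, 0.46 in pair 2 and 0.71 in pair 3. Without the pairs as a block 2 members passed (Gclm and Gsta4). Without pair 1, pair 2 or pair 3, the counts were 2, 9 and 2.

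Glutathione synthesis rose at both subunits of its limiting enzyme. Gclm, the regulatory subunit, measured 9.66, 9.86 and 9.78 on the log2 scale in static libraries 1, 2 and 3 and 11.37, 11.47 and 11.99 in flow libraries 1, 2 and 3. Every flow library lay above every static one by more than the range of either group. The rise was 3.59-fold (log2 1.84 ± 0.22 SE, n = 3 pairs, limma adjusted p = 0.003), and another probe set of the gene gave 1.58. Gclc, the catalytic subunit, measured 8.07, 8.10 and 8.39 in static and 9.05, 9.20 and 9.85 in flow libraries. It rose 2.27-fold (1.18 ± 0.13, adjusted p = 0.0016), again without overlap, and another probe set gave 0.79. Slc7a11, which imports the cystine that glutathione is made from, had a fitted value of 0.98 ± 0.30 and did not pass (adjusted p = 0.30), although its groups did not overlap. Gsr, which returns oxidised glutathione to its reduced form, had 0.62 and an adjusted p of 0.065.

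Among the other called members of the list were 2 glutathione transferases and a thiol repair enzyme. Gsta4, a transferase that couples glutathione to aldehydes from oxidised lipids, measured 10.67, 10.66 and 10.94 in static and 12.41, 11.78 and 12.57 in flow libraries. Its flow values lay apart from its static values, with flow 2 the lowest of them. It had the smallest p of all 18193 genes (2.82-fold, log2 1.5 ± 0.12, adjusted p = 0.00033). Srxn1, the sulfiredoxin that repairs oxidised peroxiredoxins, measured 9.10, 8.88 and 9.17 in static and 10.98, 10.18 and 11.31 in flow libraries. It rose 3.43-fold (1.78 ± 0.23, adjusted p = 0.0049), but its other probe sets gave 0.02, 0.47 and 1.20. Gstm1, another glutathione transferase, rose by 0.62 ± 0.11, while its other probe sets gave 0.68, 0.04 and 0.15. The thioredoxin reductase Txnrd1 had differences of 0.93, 0.13 and 0.90 in the pairs and did not pass (adjusted p = 0.37), its flow 2 library (10.57) lying within the static range.

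Export and quinone reduction were part of the same list. Abcc4 and Abcc1, pumps that move conjugates and other organic anions out of the cell, rose by 1.12 ± 0.12 and 0.71 ± 0.11, with 0.43 for another probe set of Abcc1. Abcc4 had nearly equal differences in the pairs, from static values of 7.09, 8.22 and 7.69 to flow values of 8.23, 9.33 and 8.80. Its lowest flow library only just exceeded its highest static library, so the steadiness lies within the pairs. Nqo1, the quinone reductase, measured 9.64, 8.96 and 9.30 in static and 10.63, 9.64 and 10.39 in flow libraries. Its static 1 and flow 2 libraries met at 9.64, and it rose by 0.92 ± 0.13 (adjusted p = 0.0079). Nfe2l2, the gene of NRF2 itself, had a fitted value of 0.02 (adjusted p = 0.98) and Keap1 had 0.14 (0.80), so neither passed the test at the RNA level.

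**Figure D3:**
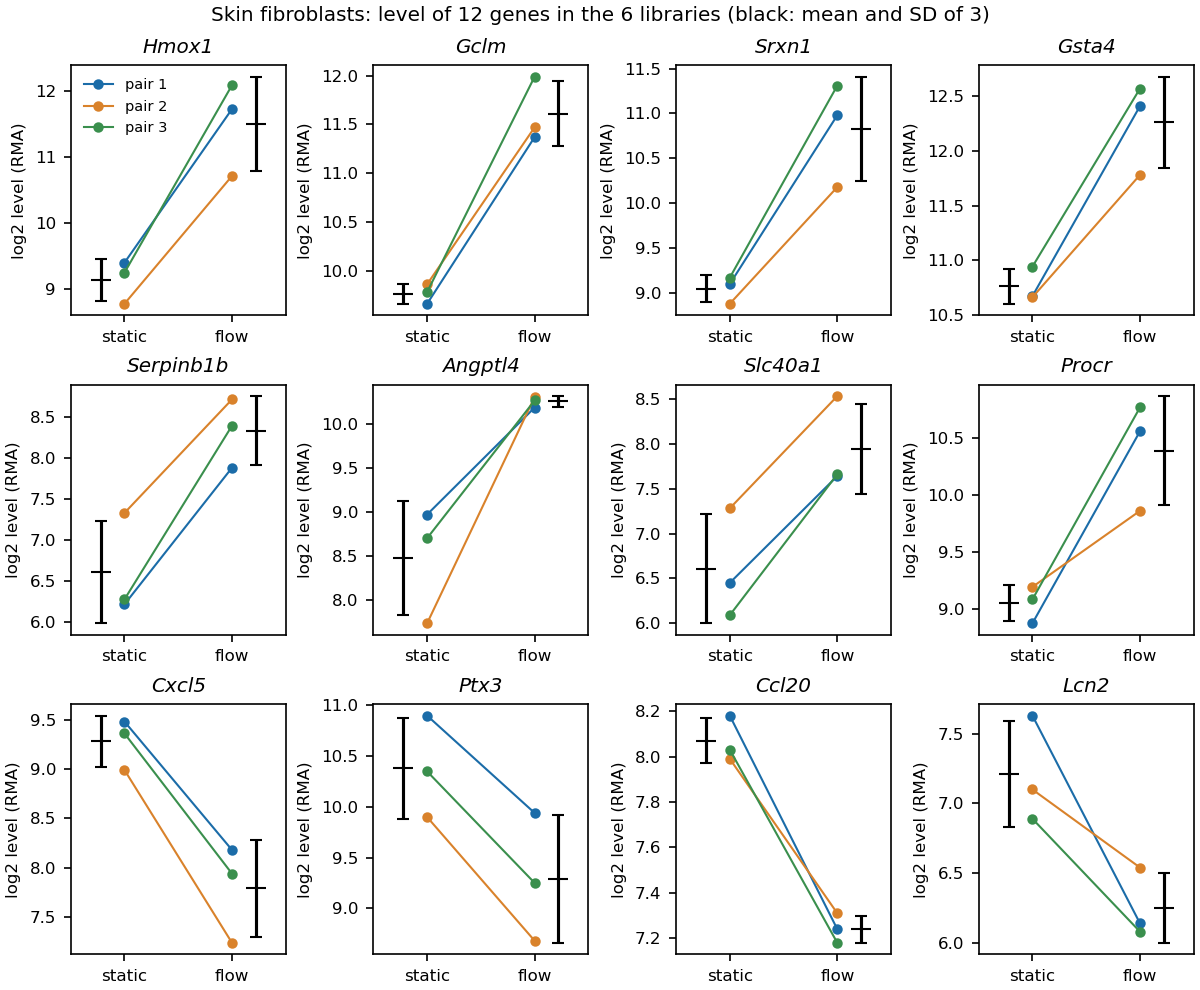
Log2 RMA levels of 12 genes in the static and flow skin libraries, with lines joining the libraries of a pair and black bars giving the mean and SD of 3 libraries (the vertical axes differ and do not start at 0). Hmox1 rises from at most 9.40 to at least 10.71 and Cxcl5 falls from at least 8.99 to at most 8.18, while the Ptx3 groups overlap although each pair falls.

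Haem handling held the largest single rise. Hmox1, the inducible haem oxygenase that splits haem into biliverdin, iron and carbon monoxide, measured 9.40, 8.78 and 9.25 in static and 11.72, 10.71 and 12.08 in flow libraries. Flow 2 was the lowest of the flow libraries, as static 2 was among the static ones, and the groups lay apart. The rise was 5.13-fold (2.36 ± 0.35, adjusted p = 0.011). It did not pass with a trended robust variance prior (adjusted p = 0.12), without the block, or without pair 1 or pair 3, and its adjusted p ran from 2.2e-06 to 1 over all alternatives. Blvrb, a biliverdin reductase, rose 2.59-fold (1.38 ± 0.18, adjusted p = 0.0049), by 1.61, 0.83 and 1.69 in the pairs. Slc40a1 encodes ferroportin, the iron exporter. It measured 6.45, 7.28 and 6.09 in static and 7.64, 8.53 and 7.66 in flow libraries and rose 2.52-fold (1.34 ± 0.15, adjusted p = 0.0016). Another probe set of Slc40a1 gave 0.20.

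Transporters of haem and porphyrins rose as well. Abcb6, a porphyrin transporter, measured 7.04, 6.91 and 7.22 in static and 8.07, 8.03 and 8.02 in flow libraries, with the 3 flow values close together. It rose 1.97-fold (0.98 ± 0.15, adjusted p = 0.013). Slc48a1, which moves haem out of endosomes, rose 1.84-fold (0.88 ± 0.10, adjusted p = 0.0018). In all, 5 of 21 genes of haem and iron handling rose and none fell, with a list median of 0.14. Of all genes 0.258% rose, with a median of -0.02. Of the 5, Hmox1 is counted in the NRF2 list too. Counts for the haem and iron list were 1 without the block, and 1, 4 and 0 without pairs 1, 2 and 3. Of the rest, Alas1, the first enzyme of haem synthesis, had 0.53 (adjusted p = 0.065), the ferritin heavy chain Fth1 had 0.34 (0.41), and the transferrin receptor Tfrc had 0.07 (0.91).

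Genes that supply NADPH and reduce carbonyls contributed 4 rises of 20 measured (0.258% of all genes), with no fall and a median of 0.32. These were Nqo1, the pentose phosphate enzyme Taldo1 (0.88 ± 0.15), the carbonyl reductase Cbr3 (0.81 ± 0.15) and the aldehyde dehydrogenase Aldh3a1 (0.60 ± 0.10). The first 3 of them belong to the NRF2 list too. Pgd, the phosphogluconate dehydrogenase that makes NADPH, measured 9.99, 10.18 and 10.17 in static and 11.34, 11.02 and 11.21 in flow libraries. Its groups did not overlap and its fitted value was 1.08 ± 0.22, with an adjusted p of 0.07. No member passed without the block, and 0, 2 and 0 passed without pairs 1, 2 and 3. Aox1, an aldehyde oxidase outside these lists, measured 6.67, 7.09 and 6.92 in static and 7.90, 8.02 and 7.80 in flow libraries and rose 2.02-fold (1.01 ± 0.10, adjusted p = 0.0013). Pir, an iron-binding nuclear protein, rose by 0.85 ± 0.13.

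Heat shock chaperones lay higher under flow, with 2 of 19 called and a median of 0.35. Hsph1, a nucleotide exchange partner of HSP70, rose 1.64-fold (0.72 ± 0.10, adjusted p = 0.0078), by 0.72, 0.77 and 0.66 in the pairs. Another probe set, with 0.87, did not pass. Its relative Hspa4l rose by 0.64 ± 0.10 (adjusted p = 0.013), with 0.09 to 0.59 for its other probe sets. The inducible HSP70 gene Hspa1a had 0.87 ± 0.25 and did not pass (adjusted p = 0.26), and its pair differences were 0.57, 0.64 and 1.39. Hspa1a and Hspa1b are near-identical copies that probe sets may not separate. No member passed without the block or without any 1 of the pairs. Endoplasmic reticulum stress genes gave 0 calls of 20 and a median of -0.06, and proteasome subunits 0 of 25 and 0.07. Over all genes 0.363% were called, with a median of -0.02.

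Genes of fatty acid use that are known targets of PPAR receptors gave 4 rises of 21, against 0.258% of all genes. Angptl4, a secreted inhibitor of lipoprotein lipase, measured 8.97, 7.73 and 8.70 in static and 10.19, 10.31 and 10.27 in flow libraries. The flow libraries were alike and the static ones spread by over 1 on the log2 scale. It rose 3.46-fold (1.79 ± 0.26, adjusted p = 0.0098), and its other probe set gave 0.17. Pdk4, a kinase that turns off pyruvate oxidation, measured 5.84, 6.31 and 6.52 in static and 7.10, 7.86 and 7.32 in flow libraries and rose 2.30-fold (1.20 ± 0.13, adjusted p = 0.0016). Acadl, an enzyme of fatty acid oxidation, rose by 0.64 ± 0.10 while its other probe set gave -0.04. Plin2, a coat protein of lipid droplets, rose by 0.61 ± 0.10 from 12.74, 12.76 and 12.61 to 13.34, 13.28 and 13.31. The other members spread to both sides, with a list median of 0.10 (0.24, 0.07 and 0.05 in the pairs). The fatty acid binding protein Fabp5 had -0.74 (adjusted p = 0.14). No member passed without the block, and 0, 1 and 1 passed without pairs 1, 2 and 3.

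Protease inhibitors that rose included 3 genes of the serpin B clade. Serpinb1b, an inhibitor of neutrophil proteases, measured 6.22, 7.33 and 6.28 in static and 7.88, 8.71 and 8.39 in flow libraries. Library 2 was the highest in both groups. It rose 3.29-fold (1.72 ± 0.17, adjusted p = 0.0013). Its paralog Serpinb1a rose by 0.83 ± 0.11, with 0.05 for another probe set, and Serpinb9, which inhibits granzyme B, rose by 0.75 ± 0.11. Serpinb1a and Serpinb1b are close copies, and cross-hybridisation between them was not tested. Slpi, a secreted inhibitor of leukocyte proteases, measured 10.85, 10.42 and 10.31 in static and 11.58, 10.95 and 11.26 in flow libraries and rose 1.66-fold (0.73 ± 0.13, adjusted p = 0.035). In all 4 of 22 protease inhibitors rose and none fell, against 0.258% of all genes that rose, with a list median of 0.01. Of these 1 passed without the block, and 1, 3 and 1 passed without pairs 1, 2 and 3.

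Genes known to respond to shear in endothelium gave 2 rises of 20 (0.258% of all genes), Procr and Angptl4, and a median of -0.05. Angptl4 is counted among the fatty acid genes too. Procr, the endothelial protein C receptor, measured 8.87, 9.19 and 9.08 in static and 10.56, 9.86 and 10.77 in flow libraries. Its rise in pair 2 was the smallest (0.66 against 1.69 in both other pairs). It rose 2.54-fold (1.35 ± 0.24, adjusted p = 0.035), and passed with pair 2 left out but with neither of the others left out. It also missed the threshold with arrays centred, with quantile normalisation applied again, with the trended robust prior and with the beta-actin covariate, its adjusted p running from 0.00079 to 1 over all alternatives. The transcription factors Klf2 (-0.05, adjusted p = 0.91) and Klf4 (-0.31, 0.36), the nitric oxide synthase Nos3 (-0.03, 0.97) and thrombomodulin, Thbd (-0.16, 0.83), did not pass. Klf2 measured 8.84, 7.59 and 8.43 in static and 8.85, 7.55 and 8.30 in flow libraries, each flow library within 0.13 of its static partner. The endothelin gene Edn1 had -0.86 (adjusted p = 0.055). Immediate early genes, which respond within minutes to hours, gave 0 calls of 21 and a median of -0.17. The same figures for all genes were 0.363% and -0.02.

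Several other rises fell in none of these groups. Tshz1, a zinc finger transcription factor, rose 2.32-fold (1.22 ± 0.17, another probe set 0.44), and Ampd3, an AMP deaminase, rose 2.16-fold (1.11 ± 0.18). In Ampd3 pair 2 differed by 0.34 and pairs 1 and 3 by 1.55 and 1.43. Stxbp5, also called tomosyn, which binds syntaxins and restrains vesicle fusion, measured 7.82, 7.76 and 7.92 in static and 8.39, 8.61 and 8.67 in flow libraries. It rose by 0.72 ± 0.09 (adjusted p = 0.0043) and was the only one of 26 vesicle genes called. Its other probe sets gave 0.20 and 0.58, and neither passed. Nedd4l, a ubiquitin ligase, rose by 0.90 ± 0.15, but its other 5 probe sets gave -0.18 to 0.34. Ikbkg, a regulatory subunit of the kinase that activates NF-kB, rose by 0.86 ± 0.10, with 0.24 to 1.14 for its other probe sets. Mmd (0.95 ± 0.16, other probe sets 0.91 and 0.48) rose too, as did Mitf, the melanocyte transcription factor (0.65 ± 0.10, another probe set -0.08). Mitf was the only one of 12 melanocyte markers called, the list's mean level lying between 6.68 and 7.07 in static and 6.81 and 7.04 in flow libraries.

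The falls were led by genes of secreted proteins. Cxcl5, a neutrophil chemokine, measured 9.48, 8.99 and 9.36 in static and 8.18, 7.24 and 7.94 in flow libraries. Every flow library lay below every static one. It fell 2.81-fold (log2 -1.49 ± 0.15, adjusted p = 0.0013). Ptx3, a secreted pentraxin that binds microbes and complement, measured 10.90, 9.90 and 10.35 in static and 9.94, 8.68 and 9.25 in flow libraries. Flow 1 lay just above static 2, so the groups overlapped, while the pairs fell by 0.96, 1.22 and 1.10. The fitted fall was 2.13-fold (-1.09 ± 0.11, adjusted p = 0.0013), and another probe set gave -0.02. Ccl20, a chemokine for dendritic cells and lymphocytes, measured 8.18, 7.99 and 8.03 in static and 7.24, 7.31 and 7.18 in flow libraries and fell 1.77-fold (-0.83 ± 0.10, adjusted p = 0.0046).

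These 3 were the called members of 24 chemokines and cytokines, whose median was -0.15 (-0.30, -0.12 and -0.10 in the pairs). With the beta-actin 3′ to 5′ difference as a covariate the median was -0.34. None passed without the block, and 2, 4 and 2 members passed without pairs 1, 2 and 3. Tslp, an epithelial cytokine, had a fitted value as large as that of Cxcl5 but a wider error (-1.47 ± 0.37, adjusted p = 0.18). Cxcl1 had -0.63 (adjusted p = 0.22), Il6 had -0.35 (0.70), Ccl2 had -0.31 (0.58) and Ccl7 had -0.01 (0.98). Lcn2, a secreted protein that binds bacterial iron carriers, measured 7.63, 7.10 and 6.89 in static and 6.14, 6.54 and 6.08 in flow libraries. It fell 1.94-fold (-0.96 ± 0.15, adjusted p = 0.018), by 1.49 in pair 1 and 0.56 in pair 2. Interferon response genes gave 0 calls of 22 and a median of -0.16. Over all genes 0.363% were called (0.104% lower), with a median of -0.02.

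Genes of cell division lay lower under flow, with few calls. Over all genes 0.104% were called lower. Tk1, the thymidine kinase of S phase, measured 8.32, 8.21 and 8.24 in static and 7.60, 7.69 and 7.12 in flow libraries. It fell 1.73-fold (-0.79 ± 0.12, adjusted p = 0.013). Uhrf1, which maintains DNA methylation at replication, fell by 0.69 (SE 0.13, adjusted p = 0.038), its groups overlapped, and another probe set gave -0.20. These were the 2 calls among 24 genes of DNA replication and S-phase entry, whose median was -0.23 (-0.01 in pair 1, -0.23 in pair 2 and -0.51 in pair 3). No member passed without the block, and 0, 1 and 0 passed without pairs 1, 2 and 3. Of 24 genes of mitosis 0 were called, but all 24 fitted values lay below 0, and for 14 the flow libraries lay below all static ones (3.73% of all genes). The median of mitosis genes was -0.30, and -0.30, -0.21 and -0.43 in the pairs. Birc5, the survivin gene, measured 8.05, 7.81 and 7.85 in static and 7.35, 7.17 and 7.05 in flow libraries and had an adjusted p of 0.057, with Ube2c, a ubiquitin enzyme of mitotic exit, at 0.062. In bulk samples fewer dividing cells and less RNA per cell cannot be told apart.

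Genes tied to cell tension gave 1 call. Ankrd1, a target of the tension-sensing factors YAP and TAZ, measured 8.51, 9.57 and 9.13 in static and 7.99, 8.66 and 8.45 in flow libraries. The groups overlapped, and the pairs fell by 0.51, 0.91 and 0.67. The fitted value was -0.70 ± 0.11 (adjusted p = 0.013), and another probe set, with -0.69, did not pass. It was the only call among 20 YAP and TAZ targets (median -0.13, and -0.12, -0.12 and -0.27 in the pairs), and it did not pass without the block or without any 1 of the pairs. Contractile genes gave 0 calls of 24 (0.363% of all genes were called) and a median of -0.16, with 23 of 24 values below 0. Calponin, Cnn1 (-0.57, adjusted p = 0.18), and the light chain Myl9 (-0.53, 0.14) are examples. The mean level of the 13 smooth muscle and pericyte markers, Cnn1 among them, was 8.29 to 8.49 in static and 8.19 to 8.27 in flow libraries, without overlap. None of the 13 was called, and their part in the contractile values was not tested. Cavin2, a coat protein of the membrane pits called caveolae, fell by 0.68 (SE 0.13), from 11.53, 11.74 and 11.97 to 11.02, 11.24 and 10.94, and its other probe sets gave -0.79 and -1.05. Cdc42ep3, an effector of the actin regulator CDC42, fell by 0.73 (SE 0.11).

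The matrix genes that define the dermis gave no call. With 0.363% of all genes called, a count of 0 in lists of this size says little. Fibrillar collagens and their processing genes had 0 of 21 called and a median of -0.06. Small leucine-rich proteoglycans and hyaluronan genes had 0 of 17 and -0.11 (-0.18, -0.12 and -0.12 in the pairs), and dermal fibroblast identity genes had 0 of 23 and -0.03. Col3a1 had -0.18 (adjusted p = 0.65) and the collagen Col12a1 had -0.53 (0.10). A missed threshold does not show that these genes were unchanged. Cholesterol synthesis genes had 0 of 19 called and a median of -0.23, with 18 of 19 values below 0, and the median was -0.13 with the beta-actin covariate and -0.16 without pair 3. Other falls were those of Osr1, a transcription factor of connective tissue (-0.88 ± 0.15), Cyp4a12a, a fatty acid hydroxylase (-0.85 ± 0.12), and Krt19, a keratin (-0.66 ± 0.10). Krt19 was the only call among 22 keratinocyte markers, whose mean level was 6.13 to 6.34 in static and 6.14 to 6.29 in flow libraries. Any part of these markers in the results was not tested.

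**Figure D4:**
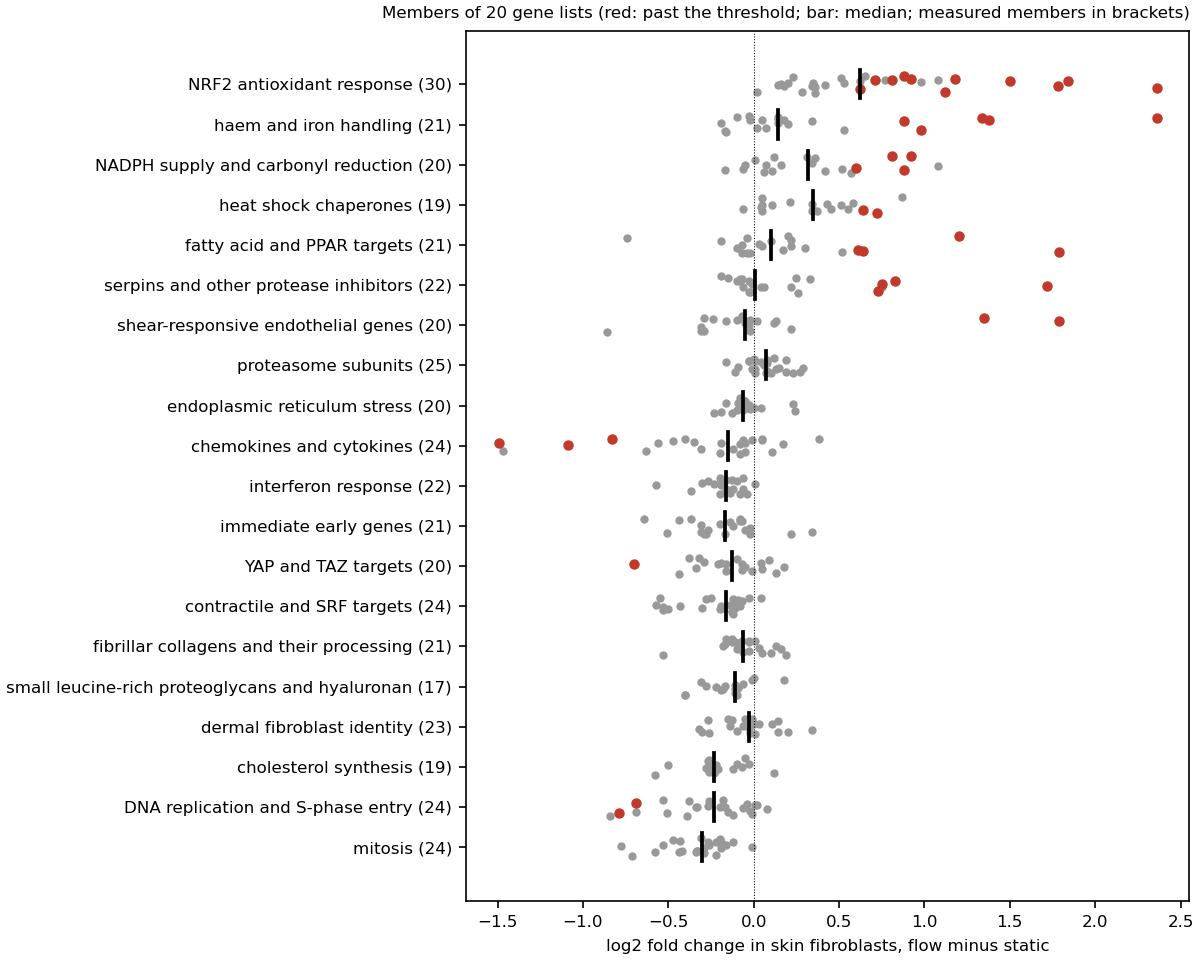
Log2 fold changes in skin fibroblasts for the measured members of 20 gene lists (points, red where called), with the list median as a black bar. The NRF2 list has its median at 0.62 with all 30 members above 0, and the mitosis list has its median at -0.30 with all 24 members below 0.

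The skin response was set against those of tendon and cornea fibroblasts to ask whether any gene responded differently. In the same fit, flow raised 128 genes (0.704%) and lowered 92 (0.506%) in tendon, and raised 51 (0.28%) and lowered 9 (0.0495%) in cornea. Of the 47 skin rises 46 had the same sign in tendon, where 66.7% of all genes positive in skin did, and 38 were called higher there. In cornea 46 had the same sign (65.6% of all genes positive in skin) and 29 were called higher. All 19 falls had the same sign in both tissues, against 65.5% and 67.6% of all genes negative in skin, and 10 were called lower in tendon and 1 in cornea. The 3 tissues share no libraries, but they share the estimate of the spread. The cornea response rests on fewer pairs than those of skin and tendon, since some cornea libraries had no partner.

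No gene passed the test of the skin response against the mean of the other responses (0% of 18193, limma, lowest adjusted p 1). There were 358 genes (1.97%) at an unadjusted p below 0.05. Skin against tendon alone and against cornea alone also gave 0 genes, with 417 (2.29%) and 534 (2.94%) at an unadjusted p below 0.05. These shares were smaller than the threshold itself. A missed threshold does not show that the responses were equal. Among the called genes the smallest unadjusted p in this test was that of Prkar2b, a regulatory subunit of protein kinase A. It measured 8.04, 8.28 and 8.71 in static and 8.98, 9.01 and 9.34 in flow libraries of skin. It rose by 0.77 ± 0.10 in skin, against 0.08 in tendon and 0.14 in cornea, and the difference was 0.66 ± 0.12 (adjusted p = 1). Its other probe sets gave 0.27 and 0.61 in skin. Cyp4a12a followed, with -0.85 in skin, -0.22 in tendon and -0.09 in cornea (difference -0.70 ± 0.15, adjusted p = 1). Lcn2 had -0.96 in skin and -0.13 in both other tissues (difference -0.83 ± 0.20, adjusted p = 1). Mitf, which rose by 0.65 in skin, had -0.03 in tendon and 0.58 in cornea. Hmox1 was nearly equal in the 3 tissues, at 2.36 in skin, 2.33 in tendon and 2.36 in cornea, with a difference of 0.01 ± 0.44.

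**Figure D5:**
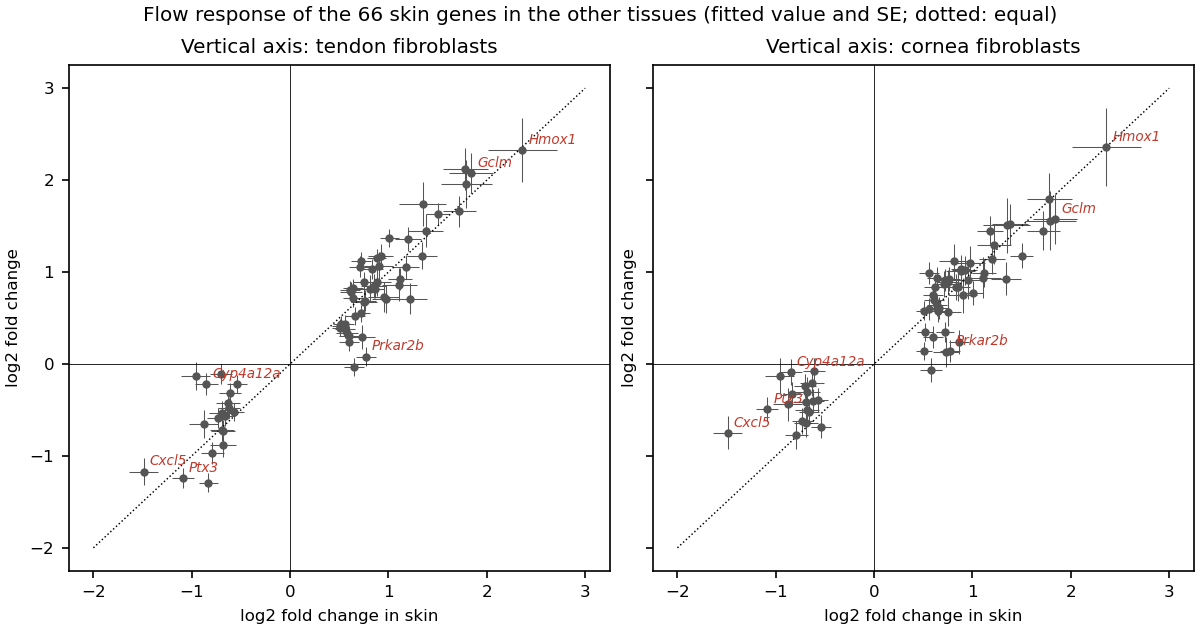
Flow responses of the 66 genes called in skin (horizontal axis, log2 fold change with SE) against their responses in tendon (left) and cornea (right), with a dotted line of equal response. Hmox1 lies on the line in both panels, while Prkar2b, at 0.77 in skin, lies near 0 in tendon and cornea.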

How the data were processed

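Expression was measured on Affymetrix MOE430A and MOE430B arrays from 100 ng of total RNA per library, labelled in 2 amplification cycles per the labels' protocols and scan records. The deposited values are log2 levels made with RMA (background correction, quantile normalisation and probe summary), per the submitters' processing notes. Its version is not given in the sources used here. Chips A and B were treated as separately normalised tables, and the number of arrays limits the precision.

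Control probe sets (64 per chip) were left out. Probe sets with 1 gene symbol in the platform annotation (20380 on chip A, 14661 on chip B) gave 18193 genes, while 691 and 245 with several symbols and 1555 and 7605 with none were not used for genes. Each gene was represented by 1 probe set, from chip A before chip B, with cross-hybridising probe sets last and then by the highest mean level. Levels of different genes were not tested against each other.

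limma 3.58.1 in R 4.3.3 was fitted per chip to all 18 libraries, with a flow effect per tissue and each pair as a block (5 residual degrees of freedom, prior 7.35 and 7.21). p-values were adjusted together by the Benjamini-Hochberg method. Errors of log2 fold changes are standard errors. The scripts were tested on simulated data.

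In skin and tendon the pairs come from the replicate numbers. In skin pairs 2 and 3 also share a day noted in the scan records, while pair 1 rests on its number. Deviations of same-numbered skin libraries from their group means correlated at 0.53, 0.81 and 0.67 on chip A and 0.44, 0.52 and 0.13 on chip B. Static and flow libraries of unlike number gave -0.66 to 0.26 on chip A and -0.44 to 0.04 on chip B. Deviations cancel within a group, so low values for unlike numbers partly follow from high values for like numbers. Both libraries of pair 2 had the highest beta-actin 3′ minus 5′ difference of their group (1.10 static and 1.71 flow on chip A). Its part in these correlations was not tested. In cornea the pairs were libraries whose scan records note the same culture day, flow 2 with static 1 and flow 3 with static 3. The other 2 cornea libraries had no partner, and each was a block of its own. The tendon flow arrays are described as cornea in 1 field and as tendon in their titles and sources, and were grouped as tendon.

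Named genes were taken from the 20 largest called rises, the 19 called falls and the genes called without the block. Up to 4 called genes per list were added. Slc48a1, Ikbkg, Pir, Prkar2b, Gstm1, Abcc1, Btbd11, Smox, Sqor, Mettl4 and Dleu2, and members that did not pass, were chosen after their values were seen. The genes, 45 lists and tests were chosen with earlier results of these data known. Lists are described by counts and medians and were not tested.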

Additional observations from a re-analysis of the deposited data

How the results depend on the processing

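The count of 66 genes changed in skin was 65 with every probe set, 62 with the probe set of largest variance, 55 with arrays centred on their median, 60 with quantile normalisation applied again, 77 with a trended robust prior, 87 with the beta-actin covariate and 82 among genes above the median of their chip. It moved further with the block. It was 5 with no replicate block, 19 with the replicate number as the block in all tissues, 8 with the scan batch as the block and 109 with skin and tendon libraries paired by number. Skin libraries alone gave 247 with the replicate block and 0 without it, where 0 is the limma count. In the fit of all 18 libraries without the block, 547 genes (3.01%) had an unadjusted p below 0.05. That share was smaller than the threshold itself. Leaving out 1 pair gave 8 to 38, and leaving out 1 skin library without the block gave 0 to 3. At an adjusted p below 0.1 there were 102 genes, and 17 with a log2 change of at least 1. Without tendon static 3, an alternative chosen after seeing the data, there were 106 (70 higher, 36 lower), all 66 among them. The median of the NRF2 list ran from 0.56 to 0.77 over its alternatives, and the test of skin against the other tissues gave 0 genes in each of its 4 alternatives. Among the 66 called genes another probe set gave the opposite sign for Acadl (-0.04), B3gnt5 (0.02), Mitf (-0.08), Nedd4l (-0.18), Samhd1 (0.02), Smox (-0.04), Sqor (-0.04), Mettl4 (-0.04) and Dleu2 (-0.09). Of the 50 genes named by rule, 45 did not pass without the block and 41, 24 and 43 did not pass without pairs 1, 2 and 3. Of these 50, 10 did not pass with arrays centred, 8 with quantile normalisation again, 8 with the beta-actin covariate, 4 with the probe set of largest variance (Ankrd1, Cavin2, Hsph1 and Stxbp5) and 4 with the trended robust prior (Arf2, Hmox1, Kcnab1 and Procr). The cause of these changes was not tested.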
